A study of Homo sapiens with 8 samples.

Results

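Amino acid carriers of 7 solute carrier families were described in hCMEC/D3, a human cell line made by immortalising endothelial cells of small brain vessels, which stands in for the blood-brain barrier in culture. The carriers were chosen by name alone, as every listed gene of the SLC1, SLC3, SLC6, SLC7, SLC36, SLC38 and SLC43 families, which gave 59 of the 23346 genes in the table. The data were 8 replicate libraries of polyadenylated RNA from this line, all of the same group, so no conditions could be compared. The labels did not say whether the replicates came from separate cultures, so p-values here speak only for these libraries, whose differences may be technical. No treatment was named, and no other cell line or primary brain endothelium was measured beside it.

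Amino acids do not diffuse through the endothelium of brain vessels and cross it on carrier proteins in both membranes of the cell. Exchangers of the SLC7 family trade one amino acid for another and mostly need a heavy chain of the SLC3 family to reach the membrane, whereas the SLC1, SLC6 and SLC38 families use the sodium gradient and the SLC36 family uses protons. Several of these carriers, among them SLC7A5, SLC7A11, SLC3A2 and SLC38A2, are known targets of the transcription factor ATF4, which is made when amino acids run short.

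Levels are given as CPM (counts scaled to library size) or, where genes are compared with each other, as RPKM (CPM per kilobase of the representative transcript). Total counts ranged from 69388544 to 90205244 per library. All counts were even, so these are 34694272 to 45102622 countable steps, called read pairs here. Markers of the labelled cell type were present: 10 of 10 endothelial and 6 of 7 brain endothelial genes had 1 CPM or more in all 8 libraries, and SLCO1A2 was the exception. Of all 23346 genes 51.3% passed this rule. Of the markers of other cells, 0 of 5 microglial and leukocyte, 1 of 6 neuronal (SYT1), 1 of 5 astrocytic (GJA1), 1 of 5 epithelial (KRT8) and 3 of 6 mural markers passed. Their summed levels were 0.544 to 1.46, 3.48 to 8.33, 201 to 443, 23.8 to 34.7 and 22.6 to 36.5 CPM, and GJA1, which endothelial cells also express, made up nearly all of the astrocytic sum, with AQP4 at 0 counts in every library. In bulk RNA, fewer cells of a type and less RNA per cell cannot be told apart.

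The libraries differed along transcript length. The slope of a library's deviations from the gene means was 0.08 to 0.14 log2 per doubling of length in replicates 1, 3, 4, 5 and 6, and it was -0.22, -0.10 and -0.33 in replicates 2, 7 and 8. An order of libraries given below is as measured unless removal of this trend is named.

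Of the 59 carriers, 26 (44.1%) were detected, meaning at least 1 CPM in all 8 libraries, beside 51.3% of all listed genes. The SLC43 family had 3 of 3 members detected, SLC38 had 7 of 11, SLC36 had 2 of 4, SLC3 had 1 of 2, SLC7 had 6 of 13, SLC1 had 3 of 7 and SLC6 had 4 of 19. Mean levels of the detected carriers had a median of 9.90 RPKM, beside 11.4 RPKM over all detected genes. All 59 together took between 0.188% of counts in replicate 8 and 0.330% in replicate 5. The 3 highest, SLC38A2, SLC3A2 and SLC7A5, held 49.8% of the summed RPKM of all 59 on average. The rank of SLC3A2 rested on its short representative transcript: with the length of all annotated exons its mean was 36.9 RPKM, and the 3 highest were SLC38A2, SLC7A5 and SLC1A5 with 44.4%.

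**Figure D1:**
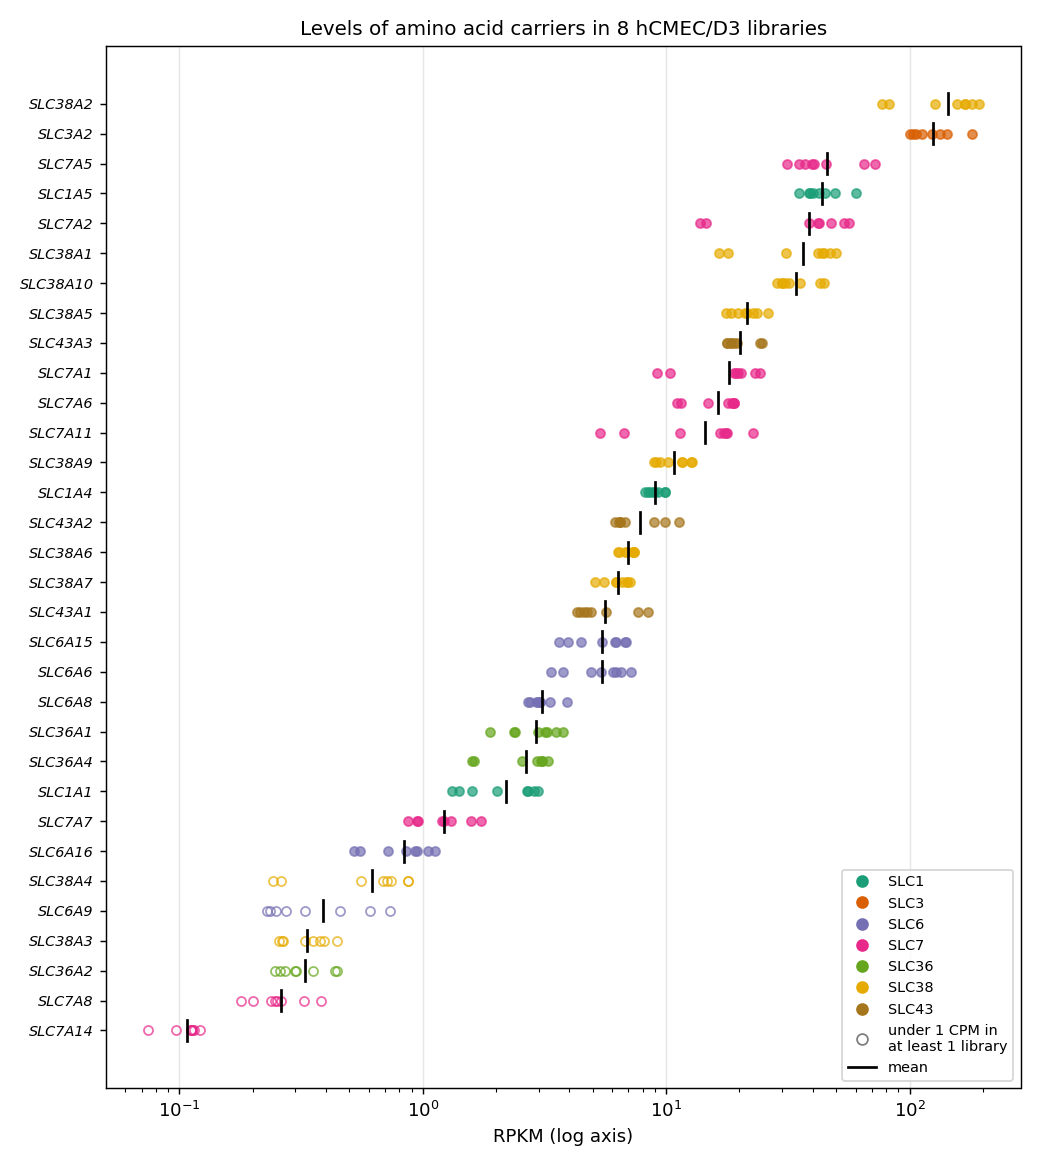
Level of each amino acid carrier in each of the 8 libraries, in RPKM on a log axis; circles are libraries, coloured by family, black bars are means, and open circles mark carriers under 1 CPM in at least 1 library. The 2 highest on the representative transcript length, SLC38A2 and SLC3A2, had means of 144 and 125 RPKM and overlapped, and SLC7A2, SLC38A1 and SLC7A11 each had 2 libraries set apart below the others.

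The heavy chain SLC3A2 (CD98; chromosome 11, 62623484 to 62656355 in hg19, plus strand, 9 exons), which carries SLC7A5, SLC7A6, SLC7A7, SLC7A8 and SLC7A11 to the membrane, was at 101, 123, 112, 104, 133, 106, 180 and 142 RPKM in replicates 1 to 8. Its mean was 125 ± 26.5 RPKM (SD, n = 8), replicate 7 was highest, and the lowest 3 libraries were replicates 1, 4 and 6. The other heavy chain, SLC3A1 (chromosome 2, 44502597 to 44547962), is the partner of SLC7A9 in kidney and gut. SLC3A1 had 13 read pairs over all 8 libraries against 74254 for SLC3A2, a pooled ratio per length of 8997 with a 95% interval of 5261 to 16897, which covers counting error only. Its end overlaps PREPL, a gene of the opposite strand with a mean of 37.3 CPM, and whether reads were counted by strand is not given in the sources used here.

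Among the light chains that exchange large neutral amino acids, SLC7A5 (LAT1; chromosome 16, 87863629 to 87903100, minus strand, 10 exons) was far above SLC7A8 (LAT2). LAT1 is the carrier that brings leucine, phenylalanine and the drug L-DOPA through the blood-brain barrier. SLC7A5 was at 37.1, 35.2, 40.4, 39.7, 65.0, 45.4, 72.0 and 31.3 RPKM in replicates 1 to 8, with a mean of 45.8 ± 14.7 RPKM (SD, n = 8). Replicates 5 and 7 stood above the other 6 libraries, and replicate 8 was lowest. SLC7A8 ranged from 0.179 to 0.382 RPKM with a median of 0.249, so the groups of values did not come near each other. Within libraries the log2 ratio of (RPKM + 0.1) of SLC7A5 to SLC7A8 was 6.95 ± 0.55 (SD, n = 8), above 0 in each of them. An exact permutation test that flips the signs of the libraries, two-sided, gave p = 0.00781 and, after adjustment over 15 pairs, 0.00901. With 8 libraries 0.00781 is the smallest p this test can give. The pseudogenes SLC7A5P1 and SLC7A5P2 together had 1.01 to 3.09 counts per 100 counts of SLC7A5, and how shared reads were split between them was not stated.

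The ratio of SLC7A5 to its heavy chain SLC3A2 was -1.48 ± 0.36 log2 (exact permutation adjusted p = 0.00901, negative in 8 of 8 libraries), but its sign rested on the length used. With the length of all annotated exons in place of the representative transcript it was 0.21 (exact permutation adjusted p = 0.141), and on CPM without length it was -0.21 (exact permutation adjusted p = 0.151). On the authors' normalised values it was -0.62 (exact permutation adjusted p = 0.00781). Which of the pair was more abundant per length thus depended on the length used. Across libraries the ratio was least negative in replicate 5, at -1.04, and most negative in replicate 8, at -2.18.

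The cystine and glutamate exchanger SLC7A11 (xCT; chromosome 4, 139085248 to 139163503, minus strand, 12 exons), which feeds glutathione synthesis, was at 17.8, 5.35, 17.3, 16.7, 17.7, 22.8, 11.4 and 6.71 RPKM in replicates 1 to 8. Its 2 lowest libraries were replicates 2 and 8, and its mean was 14.5 ± 6.06 RPKM (SD, n = 8). SLC7A5 exceeded SLC7A11 in 8 of 8 libraries, by 1.74 ± 0.71 log2 (exact permutation adjusted p = 0.00901). SLC7A11 was 3.22 ± 0.91 log2 below SLC3A2, again in every library (exact permutation adjusted p = 0.00901), but by 1.47 log2 with the length of all exons and by 1.72 log2 on the authors' normalised values. It overlaps the uncharacterised gene LOC641364, whose mean of 1.19 CPM is small beside the 140 CPM of SLC7A11.

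The light chains that exchange cationic for neutral amino acids were SLC7A6 (y+LAT2; chromosome 16, 68298419 to 68335726), with 11.1, 18.3 and 19.1 RPKM as its lowest, median and highest library, and SLC7A7 (y+LAT1), with 0.866, 1.21 and 1.74 RPKM. SLC7A6 was the higher in all libraries, by 3.64 ± 0.60 log2 (exact permutation adjusted p = 0.00901). SLC7A6 overlaps SLC7A6OS on the opposite strand, which had a mean of 9.78 CPM. The remaining light chains, SLC7A9, SLC7A10 and SLC7A13, were at most 0.0865 CPM on average. SLC7A13 had 0 counts in every library, which at 3 read pairs allows up to 0.0880 CPM in the smallest library.

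The cationic amino acid carriers, which work without a heavy chain and import arginine and lysine, were led by SLC7A2 and not by SLC7A1, the form found in most dividing cells. SLC7A2 (CAT2; chromosome 8, 17354597 to 17428077, plus strand, 13 exons) was at 47.3, 14.5, 53.8, 41.9, 56.4, 42.6, 38.6 and 13.8 RPKM in replicates 1 to 8 (mean 38.6 ± 16.2 RPKM, SD, n = 8). SLC7A1 (CAT1; chromosome 13, 30083551 to 30169825, minus strand, 13 exons) was at 19.4, 10.4, 23.1, 20.3, 24.3, 18.9, 19.8 and 9.17 RPKM (mean 18.2 ± 5.52 RPKM). Both were lowest in replicates 8 and 2, with no overlap with the other 6 libraries. SLC7A1 lay below SLC7A2 in 8 of 8 libraries, by 0.99 ± 0.30 log2 (exact permutation adjusted p = 0.00901), and without replicates 2 and 8, where the gap was smallest, by 1.15 log2. Of the rest of this group, SLC7A3 and SLC7A4 had means of 0.0422 and 0.0338 CPM, and SLC7A14, a lysosomal protein, was near the threshold at 1.09 CPM.

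The SLC38 family, which includes sodium-coupled carriers of neutral amino acids, held 41.2% ± 5.06 of the summed RPKM (SD, n = 8; 34.5% to 46.8%). SLC38A2 (SNAT2; chromosome 12, 46751971 to 46766645, minus strand, 16 exons), a glutamine and alanine importer, was at 181, 82.0, 169, 169, 157, 193, 127 and 76.8 RPKM in replicates 1 to 8. It had the highest mean of all 59 carriers (144 ± 44.4 RPKM), but exceeded SLC3A2 in 5 of 8 libraries, with SLC3A2 the higher in replicates 2, 7 and 8; with the length of all exons SLC38A2 was the higher in 8 of 8. Its neighbour on the chromosome, SLC38A1 (SNAT1; 46576841 to 46663208, 17 exons), was at 42.2, 17.9, 49.8, 44.5, 47.2, 43.8, 31.1 and 16.4 RPKM (mean 36.6 ± 13.2 RPKM). Their log2 ratio was 2.01 ± 0.19, from 1.73 to 2.22 (exact permutation adjusted p = 0.00901), although each spanned more than 2-fold between libraries. Both were low in replicates 2, 7 and 8, whereas among the other 5 libraries their orders differed, with SLC38A2 highest in replicate 6 and SLC38A1 in replicate 3.

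The system N members of the family, which move glutamine with sodium in exchange for protons and can run in either direction, were SLC38A5 (SNAT5) and SLC38A3 (SNAT3). SLC38A5 (chromosome X, 48316927 to 48328644, minus strand, 17 exons) was at 17.6, 21.3 and 26.3 RPKM in its lowest, median and highest library. SLC38A3 was at 0.256, 0.341 and 0.443 RPKM, and its mean of 0.990 CPM put it at the threshold of detection. SLC38A5 exceeded it in 8 of 8 libraries, by 5.63 ± 0.28 log2 (exact permutation adjusted p = 0.00901). SLC38A10, whose transport role is less clear, ranged from 28.6 to 44.5 RPKM and was, unlike SLC38A2, highest in replicates 2 and 8. This held after removal of the trend (0.17 and 0.11 log2 above its mean). On the authors' normalised values SLC38A10 was highest in replicates 2 and 1, at 7.81 and 7.80, with replicate 8 at 7.71. The lysosomal members SLC38A9, which reports arginine to mTORC1, and SLC38A7, which releases glutamine, had means of 10.8 ± 1.59 and 6.33 ± 0.707 RPKM, and SLC38A6 had 6.98 ± 0.439 RPKM, the smallest relative spread of the 26 (coefficient of variation 6.30%). SLC38A4 missed detection narrowly, with a mean of 2.46 CPM and 0.970 CPM in replicate 8, and SLC38A8 and SLC38A11 had at most 0.0124 CPM on average.

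In the SLC1 family the neutral amino acid exchanger SLC1A5 (ASCT2; chromosome 19, 47278140 to 47291842, minus strand, 8 exons), through which many cultured cells take up glutamine, was at 35.2, 42.5, 40.0, 39.0, 49.6, 38.7, 60.1 and 45.0 RPKM in replicates 1 to 8. Replicates 7 and 5 were highest, as for SLC7A5, and the mean was 43.8 ± 7.94 RPKM (SD, n = 8). Its relative SLC1A4 (ASCT1), a carrier of serine and alanine, was steady between 8.19 and 9.93 RPKM, and SLC1A5 was the higher in every library, by 2.25 ± 0.25 log2 (exact permutation adjusted p = 0.00901). Of the glutamate carriers, SLC1A1 (EAAT3) was the detected member, with 1.32, 2.35 and 2.98 RPKM as its lowest, median and highest library. The forms typical of glia were close to absent: SLC1A3 (EAAT1) had 16 read pairs over all libraries and 0 in replicates 1, 2 and 8, and SLC1A2 (EAAT2) was between 0.0147 and 0.0304 RPKM. Per length and over pooled read pairs SLC1A1 was 164 times SLC1A3 (95% interval 101 to 287), and within libraries SLC1A3 lay 4.29 ± 0.47 log2 below it (exact permutation adjusted p = 0.00901). The difference between SLC1A3 and SLC1A2 was -0.13 ± 0.13 log2 of (RPKM + 0.1) (exact permutation adjusted p = 0.0419, negative in 6 of 8 libraries). Both lie far below the added 0.1, which sets the size: it was -0.74 with 0.01 and -0.014 with 1 in its place, and leaving out any of replicates 1, 2, 3, 4, 5 or 8 ended the call. SLC1A6 and SLC1A7, forms of cerebellum and retina, had means of 0.0240 and 0.242 CPM.

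The SLC6 family, which also holds the carriers of dopamine, noradrenaline and serotonin, contributed 2.44% ± 0.259 of the summed RPKM. Its detected members were SLC6A15, a carrier of branched-chain amino acids and proline, SLC6A6, the taurine carrier, SLC6A8, the creatine carrier, and SLC6A16, an orphan. SLC6A15 had 3.63, 5.83 and 6.84 RPKM as its lowest, median and highest library, SLC6A6 had 3.36, 5.73 and 7.16 RPKM, and SLC6A8 had 2.72, 3.00 and 3.92 RPKM. SLC6A15 and SLC6A6 were lowest in replicates 8 and 2, whereas SLC6A8 was highest in replicates 7 and 5. After removal of the length and GC trend SLC6A15 deviated by -0.04 and -0.05 log2 in replicates 2 and 8, with replicate 7 lowest at -0.13, and on the authors' normalised values these 2 libraries were its highest, at 4.88 and 4.97. SLC6A16 had a mean of 0.837 ± 0.220 RPKM. The listed spans of several SNAR genes overlap it and also cross ATF5, so these spans reach beyond SLC6A16. Whether a SNAR copy lies within SLC6A16 cannot be told from such spans. How reads in that overlap were assigned was not tested. SLC6A10P on chromosome 16, a pseudogene of SLC6A8, had a mean of 0.152 CPM.

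The glycine carrier SLC6A9 (GlyT1; chromosome 1, 44462155 to 44497134) missed the threshold in some libraries, at 0.330, 0.228, 0.458, 0.249, 0.736, 0.236, 0.608 and 0.273 RPKM in replicates 1 to 8, with replicates 5 and 7 highest. SLC6A6 exceeded it in 8 of 8 libraries, by 3.54 ± 0.61 log2 (exact permutation adjusted p = 0.00901). SLC6A9 overlaps CCDC24 on the opposite strand, at a mean of 2.53 CPM. The other 14 members of the family were far lower, the highest being the proline carrier SLC6A20 with a mean of 0.391 CPM; the dopamine (SLC6A3), serotonin (SLC6A4) and noradrenaline (SLC6A2) carriers had 0.197, 0.0848 and 0.00971 CPM.

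All members of the SLC43 family were detected. SLC43A3, which carries purine bases more than amino acids, had 17.7, 18.7 and 24.9 RPKM as its lowest, median and highest library. The facilitated leucine carriers SLC43A2 (LAT4) and SLC43A1 (LAT3) had 6.15, 6.62 and 11.3 RPKM and 4.32, 4.84 and 8.38 RPKM. SLC43A2 was the higher in 8 of 8 libraries, by 0.48 ± 0.10 log2 (exact permutation adjusted p = 0.00901), and by 2.20 log2 on the authors' normalised values. All 3 were highest in replicates 2 and 8 as measured; on the authors' normalised values SLC43A1 kept that order, and SLC43A2 and SLC43A3 did not.

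The proton-coupled SLC36 family was low, at 0.929% ± 0.137 of the summed RPKM. SLC36A1 (PAT1), found on lysosomes, had 1.89, 3.08 and 3.77 RPKM as its lowest, median and highest library, and SLC36A4 (PAT4) had 1.59, 3.00 and 3.26 RPKM. They were not distinguished: the difference was 0.15 ± 0.20 log2 (exact permutation adjusted p = 0.0625, positive in 6 of 8 libraries), and it was 0.54 with the length of all exons and -0.61 on the authors' own normalised values. SLC36A2 had a mean of 1.11 CPM and SLC36A3 one of 0.0517 CPM.

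**Figure D2:**
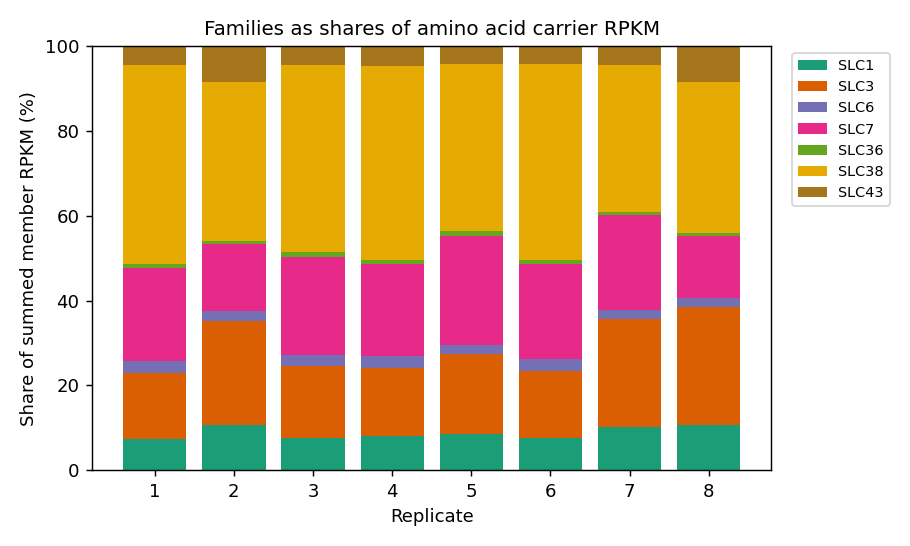
Share of each family in the summed RPKM of the 59 carriers, in percent, stacked by replicate. The SLC38 share ran from 34.5% in replicate 7 to 46.8% in replicate 1, and the SLC3 share from 15.6% in replicate 1 to 27.7% in replicate 8.

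In the order of all detected carriers by mean RPKM, 17 of the 25 neighbouring pairs differed by less than 1 SD of their within-library ratio, and 5 pairs kept the same order in all 8 libraries. On the representative transcript length, the steps seen in 8 of 8 libraries included those from SLC3A2 down to SLC7A5 and from SLC38A10 to SLC38A5. The others were from SLC6A6 to SLC6A8, from SLC36A4 to SLC1A1 and from SLC7A7 to SLC6A16. The step from SLC7A7 to SLC6A16 rested on length. On CPM their means were 2.55 and 2.43, and SLC6A16 was the higher in replicates 1, 3, 5 and 6. SLC7A5 and SLC1A5 differed by 0.03 ± 0.30 log2, and SLC7A2 and SLC38A1 by 0.02 ± 0.23 log2, so neither pair had a resolved order. The SLC7 family held 21.0% ± 3.82 of the summed RPKM, SLC3 held 20.1% ± 4.99 (9.09% with the length of all exons), SLC1 held 8.82% ± 1.41 and SLC43 held 5.49% ± 1.89.

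**Figure D3:**
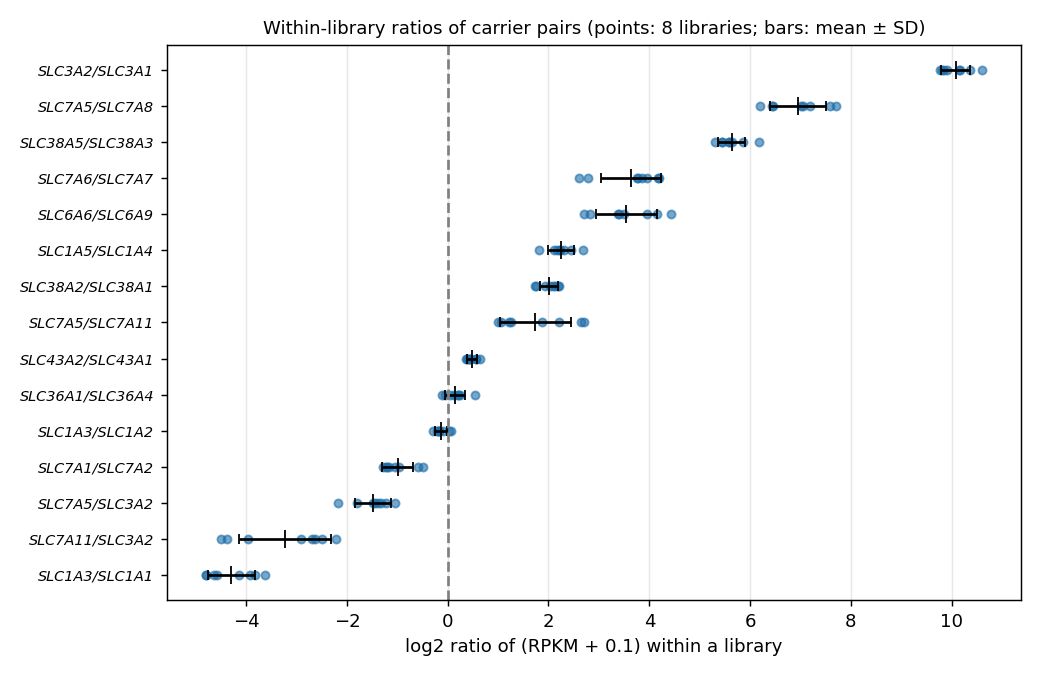
Within-library log2 ratios of (RPKM + 0.1) for 15 pairs of carriers; circles are the 8 libraries and bars the mean ± SD. 14 of 15 pairs passed the exact permutation test, and SLC36A1/SLC36A4 at 0.15 did not. Distance from 0 is no measure of certainty: SLC7A5/SLC3A2, at -1.48 here, was 0.21 with the length of all exons.

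Which carriers varied more between replicates than other genes of their abundance was asked with the goodness-of-fit test of edgeR, which sets each gene against the trend of variation on abundance. At an adjusted p under 0.05 over all detected genes, 3 of the 26 were above the trend, beside 4.66% of all detected genes: SLC7A2 (edgeR adjusted p = 0.00126), SLC7A11 (0.00556) and SLC38A1 (0.0471). All 3 were lowest in replicates 2 and 8, by up to 1.31 log2 below their mean for SLC7A2, and their transcripts are among the longest of the 26 (7615, 9645 and 8097 nt). Without replicate 2 the test kept SLC7A2 (edgeR adjusted p = 0.0418) and lost the other two, and without both replicates 2 and 8 the call of SLC7A2 was lost as well (edgeR adjusted p = 1.00). SLC38A1 lost its call on leaving out any single library (edgeR adjusted p from 0.0522 to 0.207).

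A fit with an offset for the trend of each library on length and GC content changed which carriers were called. Beside 6.42% of all genes, 4 of the 26 then stood above the trend: SLC7A5 (edgeR adjusted p = 1.75e-04), SLC7A2 (1.84e-04), SLC43A2 (0.00221) and SLC7A1 (0.0157). SLC7A11 (0.226) and SLC38A1 (0.506) did not. SLC7A5 kept this call when any library was left out (edgeR adjusted p of at most 0.0101), and it was the only carrier called when replicates 2 and 8, or 2, 7 and 8, were removed, with the offset (1.01e-04 and 3.49e-06) and without it (0.0169 and 2.25e-05). SLC7A1 lost its call without replicate 2 (0.124), 5 (0.0576) or 8 (0.0561). With the DESeq2 trend in place of that of edgeR, 7 carriers were called beside 23.5% of all genes: SLC1A1, SLC38A1, SLC38A2, SLC7A1, SLC7A11, SLC7A2 and SLC7A5.

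The authors' normalised values, which adjust each library for length and GC on a log2 scale, gave the same picture for SLC7A5 and another one for SLC43A2. SLC7A5 was at 8.77 and 8.73 in replicates 5 and 7 and between 7.25 and 8.21 in the others. SLC7A2 was at 7.11 and 7.20 in replicates 2 and 8 and between 7.78 and 8.34 in the others. SLC43A2 spanned 6.79 to 6.99 there, so its call under the offset, which used a transcript of 8133 nt, was not seen in those values.

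**Figure D4:**
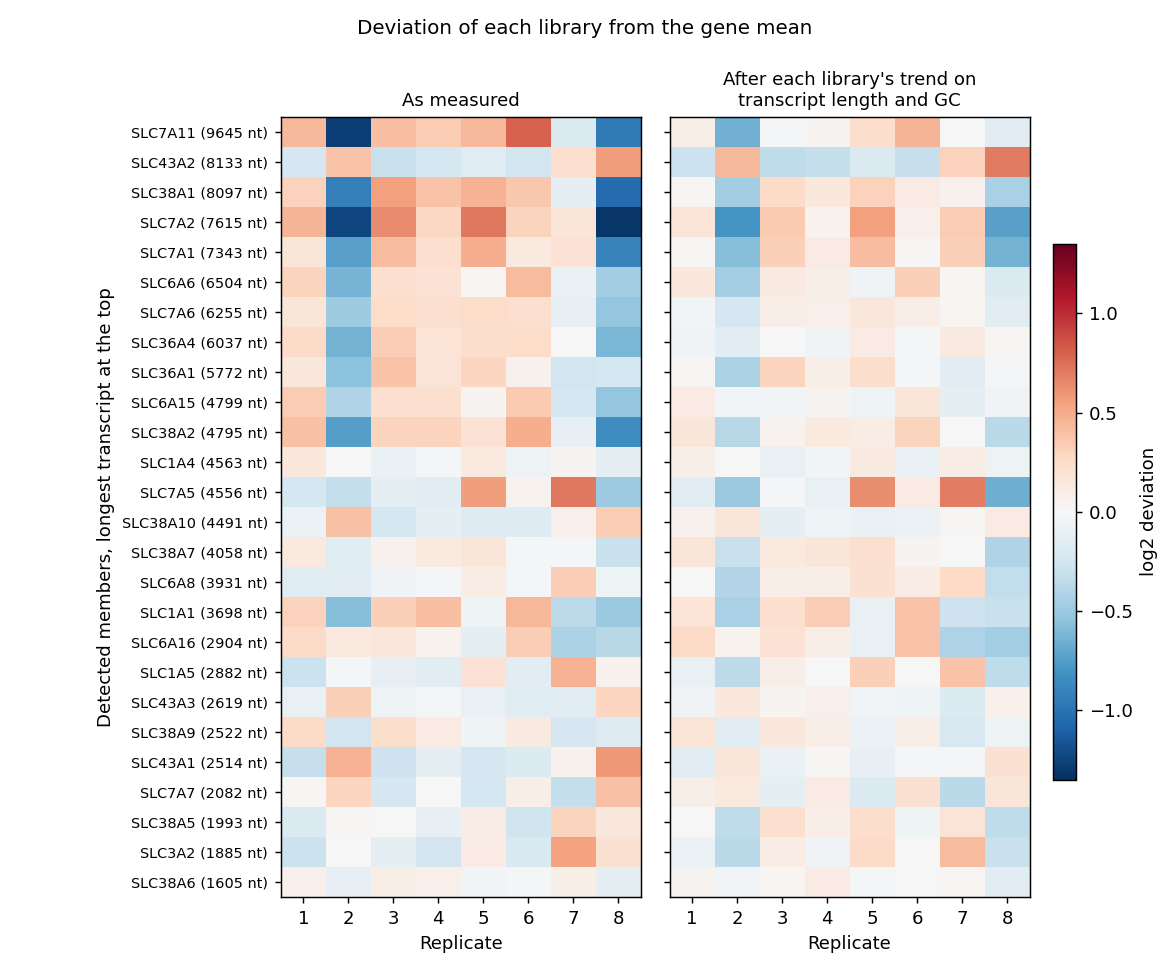
Deviation of each library from the gene mean, in log2 units from blue (below) to red (above), for the 26 detected carriers ordered from the longest transcript (top) to the shortest; columns are replicates 1 to 8, before (left) and after (right) removal of each library's trend on length and GC. Replicates 2 and 8 are blue for most long carriers on the left, and replicates 5 and 7 of SLC7A5 stay red, at 0.63 and 0.69, on the right.

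Longer carriers were more often low in replicates 2 and 8, with SLC43A2, long and highest in both, as an exception. Of the 13 detected carriers with transcripts over 4523.5 nt, 10 had replicates 2 and 8 as their 2 lowest libraries in CPM, and 3 of the 13 shorter ones did (SLC1A1, SLC38A6 and SLC38A7). That made 13 of 26 (50%), beside 29.8% of all detected genes. The median deviation of the longer carriers was -0.63 log2 in replicate 2 and -0.52 in replicate 8, whereas for the shorter ones it was 0.00 and 0.06. Across the 26 carriers, Pearson's r of the deviation with log2 length was between 0.50 and 0.58 in replicates 1, 3, 4, 5 and 6 and -0.65, -0.10 and -0.62 in replicates 2, 7 and 8; these points share their libraries and are given as a description.

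Removing the trend narrowed the spread of 19 of the 26 carriers, and the median range between libraries went from 0.85 to 0.67 log2, beside 0.70 to 0.45 for all detected genes. Replicates 2 and 8 were then the lowest 2 libraries for 15 of 26 carriers (57.7%), beside 23.9% of all genes. Of the 13 carriers with this order before, 11 kept it and 2, SLC6A15 and SLC36A4, lost it. On the authors' normalised values the count was 13 of 26, beside 22.4% of all genes. SLC3A2, SLC1A5, SLC38A5 and SLC6A8 had this order after the trend was taken out and not as measured. In replicate 8 the deviation of SLC3A2 went from 0.21 to -0.30 log2. On the authors' normalised values SLC1A5, SLC38A5 and SLC6A8 also had the order, whereas SLC3A2, SLC7A11 and SLC38A6 did not. This pattern was noticed after the values were seen, and carriers are not independent replicates, so it has no test.

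A second pattern was the rise in replicates 5 and 7. In CPM these were the 2 highest libraries of SLC7A5, SLC1A5 and SLC6A8, or 11.5% of the 26, beside 4.72% of all detected genes. After removal of the trend SLC3A2, SLC1A4 and SLC36A4 joined them, which made 6 of 26 (23.1%) beside 10.3% of all genes. The authors' normalised values also gave 6, namely SLC1A5, SLC3A2, SLC6A8, SLC7A1, SLC7A2 and SLC7A5, beside 9.85%. SLC7A5 exceeded its mean by 0.56 and 0.71 log2 in these libraries. This order was also chosen after the values were seen and has no test.

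Genes of the response to amino acid shortage were looked at beside the carriers. Of 18 listed genes, 16 were detected, beside 51.3% of all 23346 genes, a share that also stands beside the detection counts of the lists below. The 16 were led by ATF4 at 226 ± 46.7 RPKM and DDIT4 at 68.7 ± 19.8 RPKM (SD, n = 8). In the goodness-of-fit test of edgeR 0 of 16 were called, beside 4.66% of all genes; 2 had an unadjusted p under 0.05, and the DESeq2 trend called 6 (ATF5, DDIT3, CEBPB, ASNS, PSAT1 and DDIT4), beside 23.5%. With the length and GC offset 2 of 16 were called, PSAT1 and ASNS, beside 6.42%. PSAT1, an enzyme of serine synthesis, was at 12.7, 9.20, 18.3, 14.4, 27.5, 13.3, 21.4 and 8.46 RPKM in replicates 1 to 8 (edgeR adjusted p = 2.04e-06 with the offset). ASNS, which makes asparagine, was at 4.28, 5.27, 6.69, 5.25, 12.3, 5.34, 9.11 and 4.65 RPKM (edgeR adjusted p = 0.00159 with the offset). Replicates 5 and 7 were the highest for both, as for SLC7A5. In CPM these libraries were the 2 highest for 4 of the 16 genes (ASNS, CHAC1, PSAT1 and MTHFD2), beside 4.72% of all detected genes. After removal of the trend they were so for 7 (ATF4, ATF5, CEBPG, ASNS, PSAT1, SHMT2 and MTHFD2), beside 10.3% of all genes. The order was chosen after the values were seen, and these counts have no test. As measured, ATF4 itself was at 235 and 289 RPKM in replicates 5 and 7 but also at 278 and 268 RPKM in replicates 2 and 8. After removal of the trend it deviated by 0.19 and 0.27 log2 in replicates 5 and 7. In replicates 2 and 8 it then deviated by 0.02 and -0.20 log2.

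**Figure D5:**
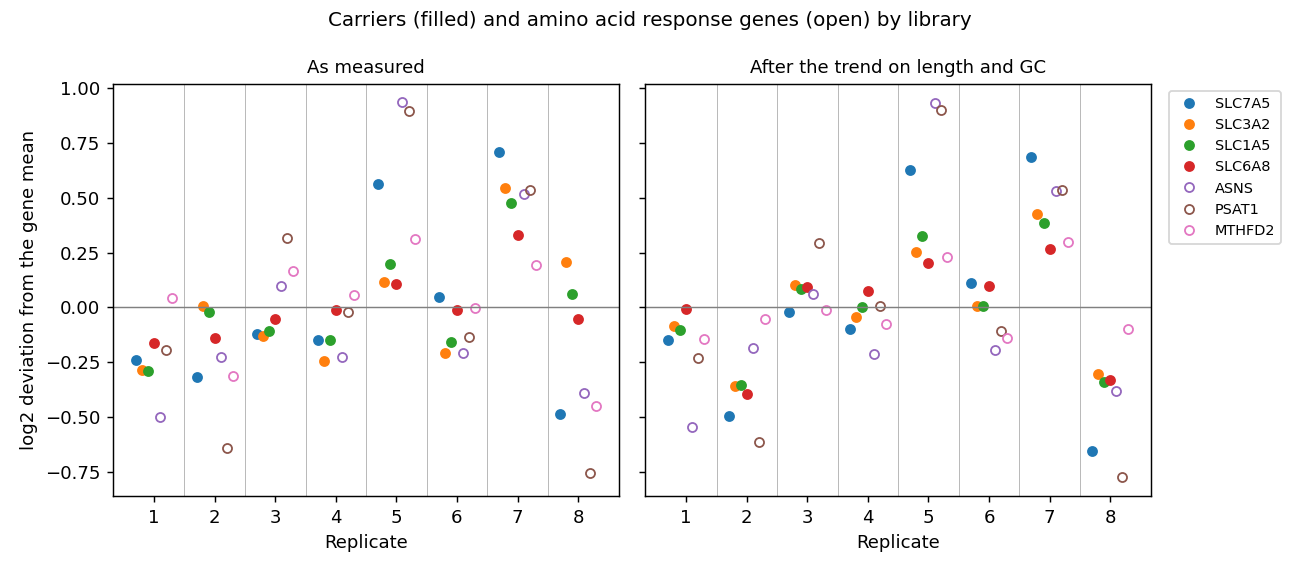
Deviation from the gene mean (log2) in replicates 1 to 8 for 4 carriers (filled circles: SLC7A5, SLC3A2, SLC1A5, SLC6A8) and 3 genes of the amino acid response (open circles: ASNS, PSAT1, MTHFD2), as measured (left) and after the trend on length and GC (right). In replicates 5 and 7 all 7 genes lie above 0 in both panels; the genes were chosen after their values were seen.

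Because ATF4 and its partners bind the short element TGATGNAA (N is any base), promoters were searched for it on both strands, from 250 bases before to 50 after each start site in the RefSeq table for GRCh38.p14. Of the 59 carriers 44 had an entry, and 6 of these (13.6%) held the element, beside 1217 of 27305 genes (4.46%) in the whole table and 3 of 15 listed response genes (20%). By promoter, 6 of 66 carrier windows (9.09%) and 3.62% of all 35116 windows held it. A match is a description of letters and not of binding. The 6 carriers and, for comparison, ASNS are shown as 30-base windows on the strand that carries the element, which stands in capitals; for SLC1A4 and SLC3A2 that is the strand opposite to the gene.
SLC1A4 (chr2:64989381-64989410, 7 bases before the start site to base 1): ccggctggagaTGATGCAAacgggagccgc
SLC1A3 (chr5:36596357-36596386): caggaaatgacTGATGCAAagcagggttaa
SLC1A5 (chr19:46784893-46784922): gaggaagtggcTGATGCAAgctgtccaggg
SLC3A2 (chr11:62881719-62881748): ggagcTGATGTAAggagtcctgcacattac
SLC38A1 (chr12:46266502-46266531): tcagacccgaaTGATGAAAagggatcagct
SLC7A1 (chr13:29595663-29595692): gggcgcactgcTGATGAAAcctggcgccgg
ASNS (chr7:97872458-97872487): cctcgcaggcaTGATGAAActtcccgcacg
The element was the same TGATGCAA in SLC1A3, SLC1A4 and SLC1A5, and TGATGAAA in SLC38A1, SLC7A1 and ASNS. SLC1A5 and SLC3A2 have 3 start sites each and SLC38A1 has 2, of which 1 held the element in each case. As measured, the carriers that held it did not share 1 highest library. SLC1A5 and SLC3A2 were highest in replicate 7, SLC7A1 in replicate 5, SLC38A1 in replicate 3 and SLC1A4 in replicate 1. SLC1A3 was barely counted. After removal of the trend SLC1A5 and SLC3A2 were highest in replicate 7, by 0.38 and 0.43 log2 above their means. SLC7A1, SLC38A1 and SLC1A4 were then highest in replicate 5, by 0.42, 0.31 and 0.13 log2. The authors' normalised values gave these same highest libraries, and a shared order was not tested. SLC7A5 and SLC38A2 had an entry without these letters, and SLC7A11 was not among the 6 carriers. An element outside the stretch from 250 bases before to 50 after a start site would be missed.

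Of the genes that sense amino acids at the lysosome, 12 of 15 listed were detected, led by LAMTOR1 at 77.7 ± 25.9 RPKM and LAMTOR2 at 58.0 ± 23.4 RPKM. GATSL3, an arginine sensor of mTORC1, was the one of these 12 above the trend, beside 4.66% of all genes (edgeR adjusted p = 0.00160), and the DESeq2 trend called 4 (GATSL3, LAMTOR1, LAMTOR2 and MLST8), beside 23.5%. GATSL3 was at 7.39 and 4.69 RPKM in replicates 8 and 2 and at most 2.61 RPKM in the others, and it was not called with the length and GC offset (edgeR adjusted p = 0.102). Of the glutathione and cystine genes 7 of 9 were detected, with GSS at 42.3 ± 6.80 RPKM and GGT5 at 38.5 ± 13.0 RPKM highest. Either edgeR fit called 0 of these 7, beside 4.66% of all genes, or 6.42% with the offset. At an unadjusted p under 0.05 there were 0 in both fits, beside 1572 of 11980 genes without the offset. The DESeq2 trend called 2 (GCLM and GGT5), beside 23.5%. Enzymes that use glutamine, glutamate and arginine gave 9 of 11 detected, led by the mitochondrial enzymes GOT2 (69.5 ± 3.87 RPKM) and GLUD1 (38.3 ± 2.54 RPKM). Either edgeR fit called 0 of these 9, beside the same shares, and the DESeq2 trend called 3, beside 23.5%. At an unadjusted p under 0.05 there were 0 and, with the offset, 1. Lists this short cannot show a called share below that of all genes.

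Of 9 amino acid and peptide carriers of other families, 3 were detected, namely the lysosomal carriers SLC15A3 (26.6 ± 11.4 RPKM), SLC15A4 (13.5 ± 0.593 RPKM) and PQLC2 (13.1 ± 3.54 RPKM). SLC15A3 reached 46.5 and 41.3 RPKM in replicates 2 and 8 and was at most 27.4 RPKM in the others. It was above the trend with the length and GC offset (edgeR adjusted p = 0.0431) and not without it (edgeR adjusted p = 0.0702). The vesicular glutamate and GABA carriers SLC17A6, SLC17A7, SLC17A8 and SLC32A1 were not detected, and neither was SLC16A10, which carries aromatic amino acids.

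The 33 carriers that missed detection fell into a low and a borderline group. SLC6A9, SLC38A3, SLC36A2, SLC7A8, SLC7A14 and SLC38A4 had means from 0.990 to 2.46 CPM and were named above. The other 27 had means of at most 0.391 CPM and no library above 0.629 CPM, and 18 carriers had at most 10 counts in every library. At the level of a few read pairs the order of these genes was not resolvable at this depth.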

How the data were processed

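Polyadenylated RNA of 8 replicate samples of hCMEC/D3 was sequenced from TruSeq libraries, per the labels' protocols. CASAVA 1.9, TopHat2 2.0.6, HTSeq and hg19 are named in the submitters' processing notes; the annotation and the use of strand are not given in the sources used here. The authors deposited 1 table of whole-number counts per gene, not normalised, and of CQN-normalised log2 values (conditional quantile normalisation for length and GC), per the file headers; that the scale is log2 was judged from the deposited values. All deposited counts were even, with 0 odd values, so counting error was computed on halved counts, called read pairs. The replicate numbers in the headers tied 16 columns to samples and left 0 over.

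CPM came from the counts with TMM-scaled library sizes (edgeR 4.0.16, R 4.3.3). RPKM used the canonical or else longest transcript in GENCODE 44 lifted to GRCh37, matched for 21456 genes by symbol or synonym. The goodness-of-fit test used an intercept-only model on the trended dispersion over 11980 detected genes, with Benjamini-Hochberg adjustment over all of them. Alternatives used DESeq2 1.42.0, or a spline of 4 degrees of freedom on length and on GC as an offset, for the 11636 detected genes with a length. Pairs were tested on log2(RPKM + 0.1) over 256 sign patterns. The scripts were tested on simulated data.

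The members, lists, pairs and alternatives were chosen with earlier results of these data known. Values per library were given for the 3 highest members of each family, those above the trend and those of the pairs; members with a mean within 2-fold of 1 CPM were named, and of the other lists the 2 highest genes and those above the trend. SLC38A4 and a few other genes named for their order of libraries were chosen after their values were seen. A planned comparison of light chain proteins was not made. Values of a few genes are not reported here. Promoter sequences came from RefSeq (GRCh38.p14), and gene positions are in hg19.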

Additional observations from a re-analysis of the deposited data

How the results depend on the processing

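The number of carriers detected was 24 to 34 under other normalisations, filters and sets of libraries, beside 26. The number above the variation trend, 3 in the counts as deposited, was 1 to 2 on leaving out 1 library, 1 without replicates 2 and 8, 1 without replicates 2, 7 and 8, and 7 with the DESeq2 trend. With the length and GC offset it was 4, and 1 without replicates 2 and 8 or without 2, 7 and 8; the combinations of the offset with fewer libraries were chosen after seeing the data. The ratio of SLC7A5 to SLC3A2 was -0.21 on CPM and turned to 0.21 with the length of all exons. The ratio of SLC1A3 to SLC1A2 ranged from -0.16 to -0.11 on leaving out 1 library and was -0.090 without replicates 2 and 8; on CPM it was -1.38. That of SLC36A1 to SLC36A4 ranged from 0.095 to 0.19 on leaving out 1 library, was 0.54 with the length of all exons and turned to -0.61 on the authors' CQN values. Without length, on CPM, the ratio of SLC7A11 to SLC3A2 was -0.88, that of SLC43A2 to SLC43A1 2.17, that of SLC38A2 to SLC38A1 1.26 and that of SLC7A5 to SLC7A11 0.67 (1.10 on CQN values). With 0.01 or 1 added, that of SLC1A3 to SLC1A1 was -6.75 or -1.63, and with 1 that of SLC6A6 to SLC6A9 was 2.19. SLC7A5 to SLC3A2 and SLC36A1 to SLC36A4 changed direction under some alternatives. SLC1A3 to SLC1A2 stayed negative on average but lost its call under several. The other 12 pairs kept their direction under every alternative run. With 5 libraries the smallest p of the exact permutation test is 0.0625. Family shares on CPM were 6.54% (SLC1), 8.88% (SLC3), 2.82% (SLC6), 30.9% (SLC7) and 1.21% (SLC36). The length ratios move because another length is divided by; for the other changes the cause was not tested. Depth limits the 18 carriers with at most 10 counts in every library. No paired analysis was possible because all libraries belong to 1 group.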
